A study of Homo sapiens with 6 samples.

Results

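SR proteins and heterogeneous nuclear ribonucleoproteins (hnRNPs) are abundant RNA-binding proteins that steer splice site choice. Their genes were taken by symbol: every protein-coding gene named SRSF with a number, TRA2A, TRA2B or HNRNP. The pattern matched 36 of the 26704 genes listed in any of the deposited tables, of which 15778 were protein-coding. The 36 were 12 SRSF genes, 2 TRA2 genes and 22 HNRNP genes. RNA was measured by poly-A RNA sequencing in 6 libraries of SKM-1, a human acute myeloid leukaemia line established after progression of a myelodysplastic syndrome. There was 1 library of cells given VEM (vemurafenib, a BRAF kinase inhibitor named in the study's title), 1 of cells given VEM with BOR, 2 of cells given BOR and 2 of untreated cells. The labels give BOR only by that abbreviation, and no dose or time is stated. All libraries came from that single line, and whether a group's libraries are separate cultures is not labelled. The p-values therefore speak only for these libraries, with a spread partly borrowed from all genes.

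SR proteins carry RNA recognition motifs and a tail rich in arginine and serine, bind exonic enhancers and recruit the U1 and U2 small nuclear ribonucleoproteins. The hnRNPs coat nascent transcripts, and many of them repress nearby splice sites, so exon inclusion often follows the balance between both families. Many of these genes limit their own output by splicing in an exon that sends the transcript to nonsense-mediated decay. In myeloid neoplasms the SR protein gene SRSF2 is recurrently mutated. Protein, phosphorylation and splicing itself were not analysed here.

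Read totals recovered from the normalised values ran from 17370791 to 18507606, and the VEM library's total, estimated from its smallest step, was 17252404. The 3 deposited comparisons share the untreated libraries. All 7 markers of myeloid leukaemia were present, with summed levels of 28845 to 87688 normalised reads per library. Other markers found in every table were 1 of 3 erythroid, 2 of 4 epithelial, 1 of 4 lymphoid and 1 of 3 fibroblast genes. In that order they summed to at most 2.74, 12.7, 147 and 134 normalised reads. The BOR 2 library stood apart from the rest. The SD over all genes of its log2 difference from the untreated mean was 1.46, against 0.38 in BOR 1. Mitochondrial transcripts took 3.14% of its signal, against 4.23% to 5.40% in the other libraries. Values of BOR 1 and BOR 2 are therefore given separately.

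Of the 36 genes, 35 were in every table, and these 35 passed the filter of a mean of 10 normalised reads. SRSF12, a little-expressed relative of SRSF10, did not pass. Its levels were 0.991 normalised reads in VEM, against 0.954 and 0 in untreated 1 and untreated 2 of the same table. In the BOR table they were 1.79 and 1.31 in BOR 1 and BOR 2, against 0.851 and 0 in untreated 1 and untreated 2. These values stand for at most 2 reads, so no fold is given. The other values below are of the 35 genes.

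Levels were compared between genes per length, as TPM, a unit scaled for gene length and for the library's sum. In untreated cells the highest by TPM was HNRNPAB, an A/B-type hnRNP, with 799 and 1091 TPM. HNRNPA1, the classical repressor that binds exonic and intronic silencers, had 725 and 886 TPM, overlapping HNRNPAB. HNRNPA2B1, its close relative with a role in RNA transport, had 567 and 628 TPM, below both HNRNPA1 values. HNRNPK, which binds cytosine-rich RNA, followed with 411 and 433 TPM. The first 10 places by TPM were all taken by hnRNP genes. In normalised reads the order differed, with untreated means of 29800 for HNRNPA2B1, 22175 for HNRNPA1 and 11006 for HNRNPAB. The deposited lengths of HNRNPA2B1, HNRNPA1 and HNRNPAB were 9267, 5093 and 2144 bases, so the TPM order rests on these lengths.

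SRSF2 was the highest of the SR proteins by its mean, with 197 and 294 TPM in untreated cells, and SRSF3, the smallest SR protein, had 180 and 241 TPM. SRSF7, which like SRSF3 also acts as an adaptor for mRNA export, had 167 and 248 TPM. The levels of SRSF2, SRSF3 and SRSF7 overlapped, and their order is not resolved. SRSF4 had 34.8 and 42.0 TPM and SRSF8 had 30.6 and 33.0 TPM. TRA2B, an SR-like activator that binds purine-rich exonic sequences, had 83.0 and 104 TPM, and its paralog TRA2A had 55.4 and 69.7 TPM. Lowest by their means were HNRNPA1P48, HNRNPUL2 and HNRNPA1L2, with 26.5, 23.1 and 20.3 TPM.

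**Figure D1:**
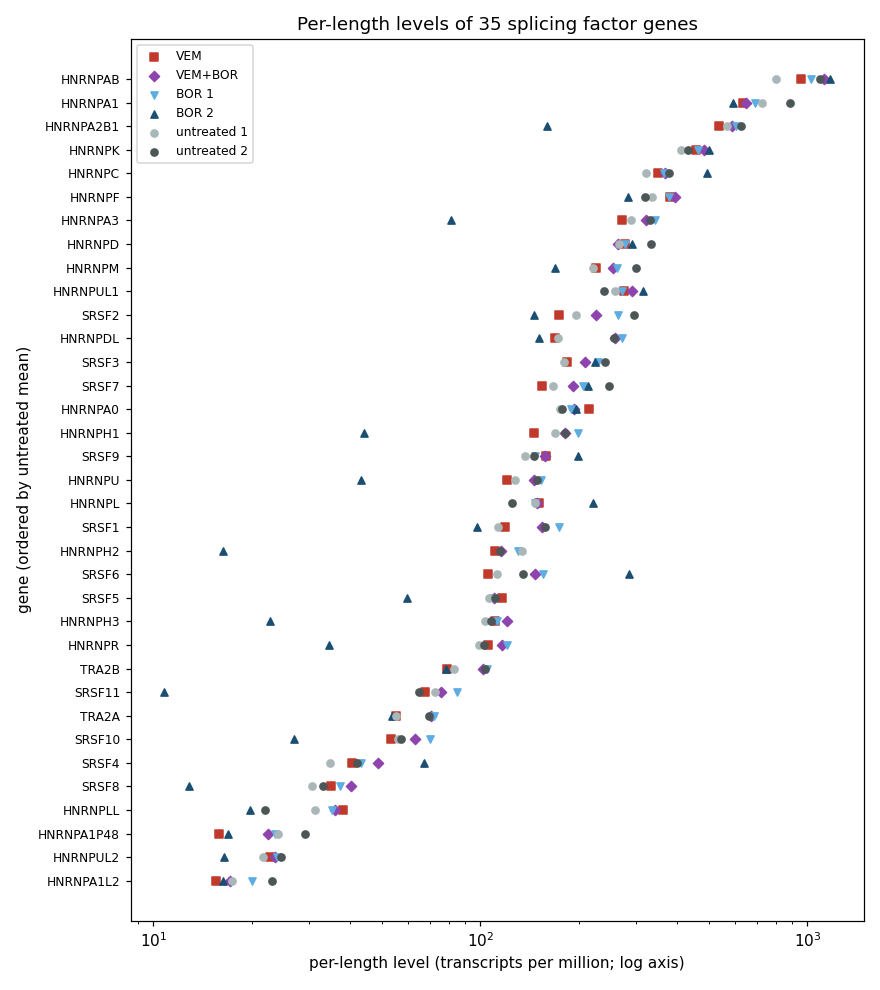
Level of each of 35 SR protein, TRA2 and hnRNP genes in TPM on a log axis, 1 symbol per library, ordered by the untreated mean. HNRNPAB, HNRNPA1 and HNRNPA2B1 led in untreated cells by TPM, an order that rests on the deposited gene lengths. BOR 2 lay far below the other libraries for HNRNPA2B1, HNRNPA3, HNRNPH2 and SRSF11.

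Together the 35 genes took 1.29% of the signal of the VEM library, 1.41% of VEM+BOR, 1.43% of BOR 1 and 1.10% of BOR 2, against 1.29% and 1.54% of untreated 1 and untreated 2. The A, B and D group of hnRNPs, with HNRNPA1 and HNRNPA2B1, contributed 0.533% in VEM, 0.570% in VEM+BOR, 0.579% and 0.398% in BOR 1 and BOR 2, and 0.540% and 0.669% in untreated 1 and untreated 2. The F and H group took 0.110% in VEM, 0.123% in VEM+BOR and 0.125% and 0.0491% in BOR 1 and BOR 2, against 0.114% and 0.120% in untreated 1 and untreated 2.

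The untreated libraries differed from each other over nearly the whole family. This gap is only part of the spread used in the tests, which also borrows from all genes. With BOR the gap between BOR 1 and BOR 2 enters too. On a common scale for all 6 libraries, untreated 2 was above untreated 1 for 34 of the 35 genes, against 50.4% of all 15438 genes. The median log2 difference was 0.45 over the 35 genes and 0.01 over all genes. When libraries were scaled by their totals instead, untreated 2 was above for 29 of the 35 genes, against 36.1% of all genes, with medians of 0.25 and -0.19. On the common scale the difference was at least 1.5-fold for 8 of the 35 genes, against 11.8% of all genes: SRSF1, SRSF2, SRSF3, SRSF7, HNRNPAB, HNRNPA1L2, HNRNPDL and HNRNPM.

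SRSF2 had 2905 normalised reads in untreated 1 and 5170 in untreated 2, and SRSF7 had 3312 in untreated 1 and 5843 in untreated 2. The exception was HNRNPLL, known for its control of PTPRC splicing in lymphocytes, with 905.6 in untreated 1 and 758.6 in untreated 2. HNRNPL, its paralog that binds CA repeats, was nearly level at 4913 and 4975.

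**Figure D2:**
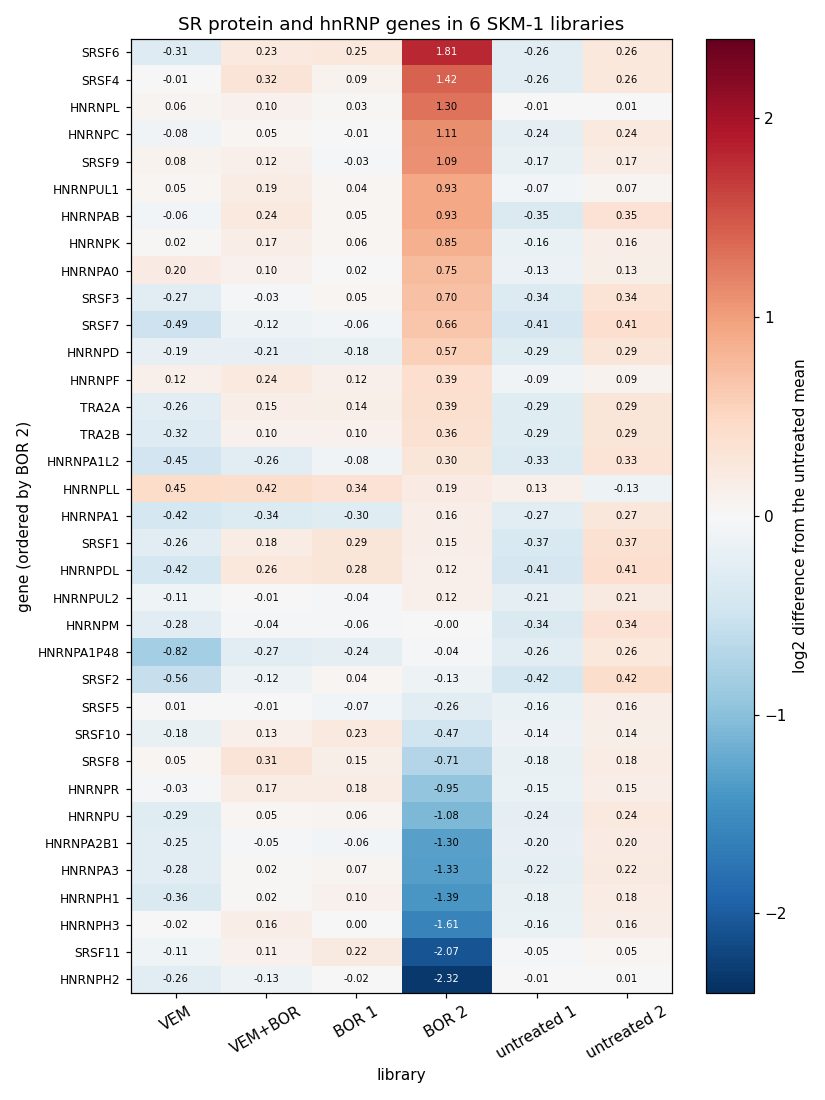
Log2 difference of each of 35 genes from the untreated mean of log2 values on the common scale, 1 column per library, ordered by BOR 2. BOR 2 runs from 1.81 for SRSF6 to -2.32 for HNRNPH2; scaling by library totals lowers that column by 0.59 and turns the sign of 10 genes. Untreated 2 is higher than untreated 1 in every line but HNRNPLL on this scale.

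With VEM, no SR protein or hnRNP gene passed the test. Changes are log2 changes of normalised reads plus 1, tested with limma over all genes of the comparison's own table, with a Benjamini-Hochberg adjusted p under 0.05 as the call. By limma, 0 of 35 genes were called, against 0.0446% of all 15689 genes tested, and 0 had an unadjusted p under 0.05, against 2.54%. The median log2 change was -0.20 over the 35 genes and 0.00 over all genes. Over the 35 genes it was -0.41 without untreated 1 and 0.06 without untreated 2. Untreated 1 itself stood at a median of -0.22 from the untreated mean on the common scale. VEM lay below both untreated libraries for 15 of the 35 genes, against 27.6% of all genes, and above both for 4, against 30.3%. On the common scale 0 of the 35 genes were at least 2-fold above the untreated mean, against 3.16% of all genes, and 0 at least 2-fold below, against 2.12%.

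The genes below both untreated libraries were spread over the families. They were SRSF2, SRSF6, SRSF7, SRSF10 and SRSF11, TRA2B, 6 of the 9 hnRNPs of the A, B and D group, HNRNPH1, HNRNPH2 and HNRNPU. SRSF2 had 2628 normalised reads in VEM, against 2905 and 5170 in untreated cells, with a log2 change of -0.57 (SE 0.42, limma adjusted p = 0.999995). SRSF7 had 3134 normalised reads in VEM, against 3312 and 5843 in untreated cells, with a log2 change of -0.50 (SE 0.42). For both genes VEM lay below the untreated libraries by less than the gap between those libraries.

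The lowest log2 change with VEM was that of HNRNPA1P48, at -0.83 (SE 0.46, limma adjusted p = 0.999995). It had 152.8 normalised reads in VEM, against 226.0 and 325.1 in untreated cells. HNRNPA1L2 had a log2 change of -0.46 (SE 0.52). Both are near copies of HNRNPA1, so reads could have been split between them and their values are uncertain. HNRNPA1 itself had 16234 normalised reads in VEM, against 18070 and 26280 in untreated cells.

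Above both untreated libraries were HNRNPLL, HNRNPA0, HNRNPF and HNRNPL. HNRNPLL had 1132 normalised reads in VEM, against 905.6 and 758.6 in untreated cells, the highest log2 change of the family at 0.44 (SE 0.37, limma adjusted p = 0.999995). HNRNPA0, an A-type hnRNP encoded by an intronless gene, had 9429 normalised reads in VEM, against 7478 and 9007 in untreated cells, with a log2 change of 0.19 (SE 0.45). HNRNPF, which binds guanine tracts, had a log2 change of 0.11 (SE 0.42), and SRSF9 had 0.07 (SE 0.38).

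With VEM+BOR, no gene of the family passed either. By limma, 0 of 35 genes were called, against 0.192% of all 15606 genes tested, and 0 had an unadjusted p under 0.05, against 3.01%. On recovered reads edgeR and DESeq2 also called 0 of them. The median log2 change was 0.09 over the 35 genes and 0.01 over all genes, and over the 35 genes it was -0.15 without untreated 1 and 0.29 without untreated 2. VEM+BOR lay above both untreated libraries for 8 genes, against 30.1% of all genes, and below both for 3, against 27.9%. On the common scale 0 of the 35 genes were at least 2-fold above the untreated mean, against 3.1% of all genes, and 0 at least 2-fold below, against 3.02%.

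HNRNPLL was again highest, with 1109 normalised reads in VEM+BOR, against 905.6 and 758.6 in untreated cells and a log2 change of 0.41 (SE 0.37, limma adjusted p = 0.9999). SRSF4, an SR protein with a long arginine and serine tail, had 2264 normalised reads in VEM+BOR, against 1515 and 2175 in untreated cells, with a log2 change of 0.31 (SE 0.38). SRSF8, encoded by a retrogene related to SRSF2, had 849.1 in VEM+BOR, against 603.5 and 774.0 in untreated cells, with a log2 change of 0.30 (SE 0.38). For HNRNPLL, SRSF4 and SRSF8 the VEM+BOR value lay above both untreated libraries. HNRNPDL, a relative of HNRNPD, had a log2 change of 0.24 (SE 0.45) but lay between the untreated libraries.

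At the other end HNRNPA1 had 17249 normalised reads in VEM+BOR, against 18070 and 26280 in untreated cells, with a log2 change of -0.35 (SE 0.56). HNRNPA1P48 had -0.28 (SE 0.45) and HNRNPA1L2 -0.27 (SE 0.52). HNRNPD, also called AUF1, which binds AU-rich elements in mRNA, had a log2 change of -0.22 (SE 0.48). HNRNPA1 and HNRNPA1P48 lay below both untreated libraries, and HNRNPA1L2 and HNRNPD lay between them.

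The VEM+BOR and VEM libraries were set side by side as single libraries, with no test. On the common scale VEM+BOR was above VEM for 31 of the 35 genes, against 55.1% of all genes, and when scaled by totals for 29, against 45.5%. The exceptions on the common scale were HNRNPA0, HNRNPD, HNRNPLL and SRSF5. HNRNPDL had 7366 normalised reads in VEM+BOR and 4626 in VEM, a log2 difference of 0.67. SRSF6 had 3533 in VEM+BOR and 2432 in VEM, and SRSF2 had 3568 in VEM+BOR and 2628 in VEM. For HNRNPDL, SRSF6 and SRSF2 the VEM+BOR value lay between the untreated libraries and the VEM value below both.

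With BOR, the group joined libraries that differed from each other. By limma 0 of 35 genes were called, against 0% of all 15382 genes tested, and 0 had an unadjusted p under 0.05, against 0.247%. On recovered reads edgeR called 0 genes of the whole table, and DESeq2 called 19, of which 0 were of this family. Both BOR libraries lay above both untreated libraries for HNRNPL, HNRNPLL and HNRNPF, 3 of 35 genes against 11.7% of all genes. For 0 genes did both lie below, against 8.24%. The median log2 change was 0.20 over the 35 genes and 0.04 over all genes, and -0.10 and -0.26 when libraries were scaled by their totals. Over the 35 genes it was 0.05 without BOR 2, -0.18 without untreated 1 and 0.39 without untreated 2.

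**Figure D3:**
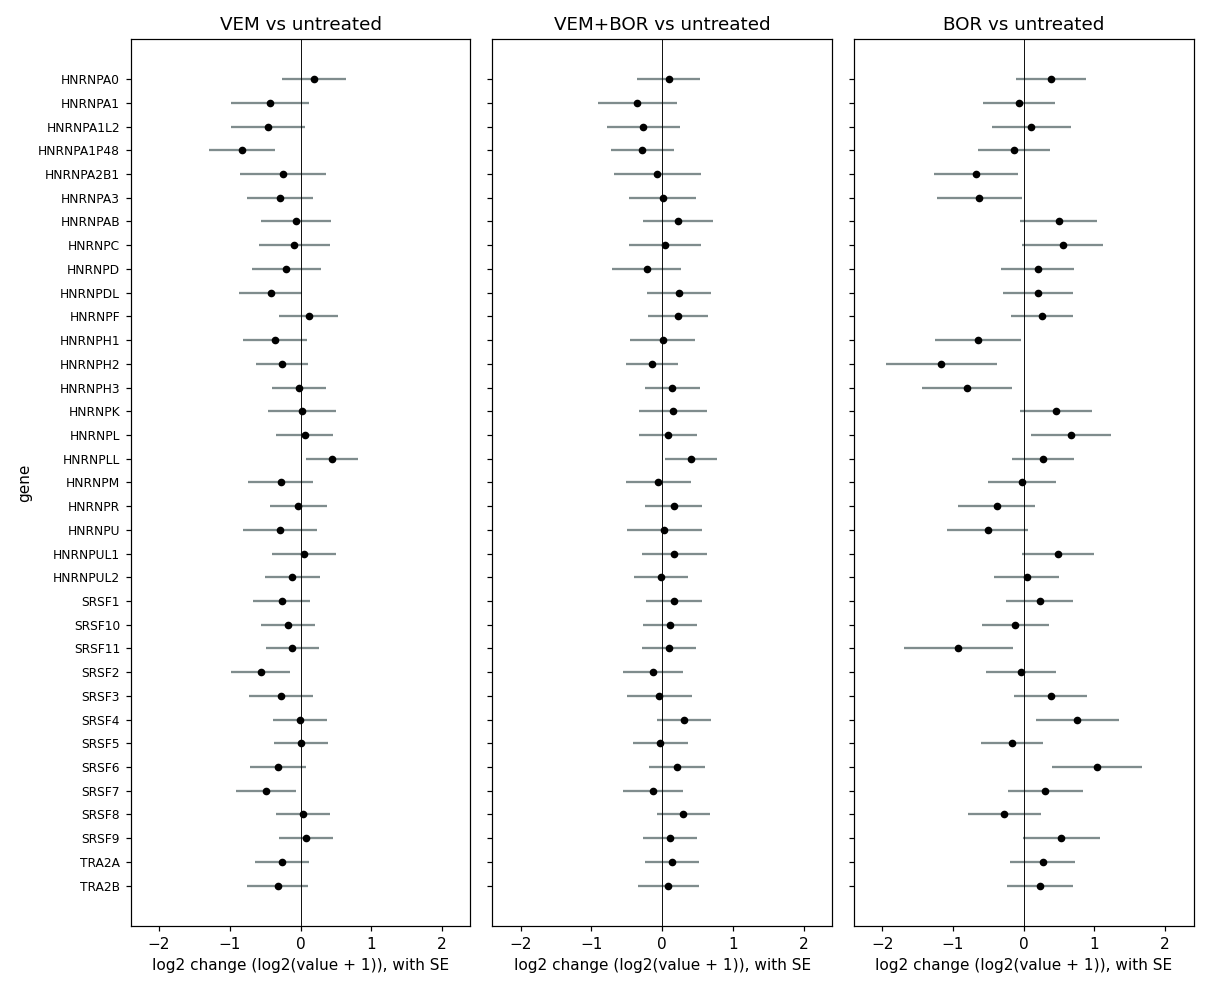
Log2 change from untreated cells (points) with its standard error (lines) for 35 genes in the VEM, VEM+BOR and BOR comparisons, limma on log2 of normalised reads plus 1. The largest changes are those with BOR, from 1.04 for SRSF6 to -1.17 for HNRNPH2; scaling by library totals lowers the BOR median to -0.10. By limma 0 of 35 genes were called in each panel.

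BOR 1 stayed close to the untreated libraries. It lay above both for 6 genes, against 29.9% of all genes, and below both for 2, against 20.7%. Of the 35 genes 0 were at least 2-fold above the untreated mean, against 1.24% of all genes, and 0 at least 2-fold below, against 1.39%. The SD of its log2 difference over the 35 genes was 0.14. The genes above were HNRNPL, HNRNPF, HNRNPLL, SRSF10, HNRNPR and SRSF11, and those below were HNRNPA1 and HNRNPH2.

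BOR 2 spread the family in both directions, with an SD of 1.01 over the 35 genes. It stood more than 1 log2 unit from BOR 1 for 13 of the 35 genes, against 44.7% of all genes. On the common scale 16 genes lay above both untreated libraries, against 43.8% of all genes, and 11 lay below both, against 41.7%. At least 2-fold above the untreated mean were 5 genes, against 16.4% of all genes: SRSF6, SRSF4, HNRNPL, HNRNPC and SRSF9. At least 2-fold below were 7, against 25.4%: HNRNPH2, SRSF11, HNRNPH3, HNRNPH1, HNRNPA3, HNRNPA2B1 and HNRNPU. These counts depend on the scaling, because dividing by library totals lowers BOR 2 by 0.59 on the log2 scale. On that scale 1 gene, SRSF6, was at least 2-fold above at a log2 difference of 1.21, against 6.33% of all genes, and 10 genes were at least 2-fold below, against 37.2%. Between the scales 10 genes changed sign.

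Among the SR proteins SRSF6 had the largest positive change with BOR. It had 3604 and 10591 normalised reads in BOR 1 and BOR 2, against 2527 and 3611 in untreated cells. BOR averaged 7097 ± 4941 and untreated cells 3069 ± 767 (SD, n = 2 each), a log2 change of 1.04 (SE 0.63, limma adjusted p = 0.968). BOR 2 alone lay above the untreated libraries. SRSF4 had 1936 and 4851 in BOR 1 and BOR 2, against 1515 and 2175 in untreated cells, with a log2 change of 0.76 (SE 0.58). SRSF4 and SRSF6 thus shared the pattern of 1 high library.

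SRSF11, an SR-related protein, had 3627 and 740.3 normalised reads in BOR 1 and BOR 2, against 3010 and 3216 in untreated cells. Its log2 change was -0.92 (SE 0.78, limma adjusted p = 0.968), with BOR 1 above and BOR 2 below the untreated libraries. SRSF10, which represses splicing when dephosphorylated in heat shock, had 3646 and 2241 in BOR 1 and BOR 2, against 2811 and 3429 in untreated cells. For SRSF10 too BOR 1 lay above and BOR 2 below both untreated libraries.

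SRSF1, the founding SR protein, had 2927 and 2648 normalised reads in BOR 1 and BOR 2, against 1851 and 3075 in untreated cells. SRSF2 had 3995 and 3553 in BOR 1 and BOR 2, against 2905 and 5170 in untreated cells. SRSF1 and SRSF2 thus stayed between the untreated libraries in both BOR libraries on the common scale. In BOR 2 their log2 differences were 0.15 and -0.13 on that scale, and -0.45 and -0.72 when scaled by totals. TRA2A and TRA2B stood 0.39 and 0.36 from the untreated mean in BOR 2 on the log2 common scale, and at -0.21 and -0.24 when scaled by totals.

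The F and H group of hnRNPs, which bind guanine tracts, split by gene. HNRNPH2 had 1457 and 293.4 normalised reads in BOR 1 and BOR 2, against 1462 and 1485 in untreated cells. Its mean was 875.2 ± 823 with BOR and 1473 ± 16.6 in untreated cells (SD, n = 2 each), the lowest log2 change of the family at -1.17 (SE 0.78, limma adjusted p = 0.968). BOR 1 lay beside the untreated libraries and BOR 2 far below them. HNRNPH3 had 3038 and 991.0 in BOR 1 and BOR 2, against 2712 and 3385 in untreated cells, with a log2 change of -0.80 (SE 0.63). HNRNPH1 had 9491 and 3373 in BOR 1 and BOR 2, against 7841 and 10025 in untreated cells.

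HNRNPF had 6194 and 7465 normalised reads in BOR 1 and BOR 2, against 5332 and 6055 in untreated cells. Its log2 difference in BOR 2 was 0.39 on the common scale and -0.21 when scaled by totals. HNRNPF thus lacked the low BOR 2 value of HNRNPH1, HNRNPH2 and HNRNPH3, whose log2 differences there were -1.39, -2.32 and -1.61.

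The A, B and D group was divided in the same library. HNRNPA2B1 had 28319 and 12006 normalised reads in BOR 1 and BOR 2, against 25699 and 33900 in untreated cells, with a log2 change of -0.68 (SE 0.59). HNRNPA3, a close paralog, stood at -1.33 in BOR 2, while HNRNPA1 stood at 0.16 on the common scale and at -0.44 when scaled by totals. HNRNPAB had 11091 and 20366 in BOR 1 and BOR 2, against 8388 and 13624 in untreated cells. On the common scale HNRNPA2B1 and HNRNPA3 lay below, and HNRNPAB above, both untreated libraries in BOR 2.

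Of the other hnRNPs, HNRNPL had 5041 and 12193 normalised reads in BOR 1 and BOR 2, against 4913 and 4975 in untreated cells, with a log2 change of 0.67 (SE 0.56). HNRNPC, which binds uridine tracts and keeps Alu elements from being spliced as exons, had 13460 and 29170 in BOR 1 and BOR 2, against 11453 and 16017 in untreated cells, with a log2 change of 0.55 (SE 0.57). HNRNPU, a nuclear scaffold protein that binds chromatin and RNA, had 17359 and 7843 in BOR 1 and BOR 2, against 14104 and 19568 in untreated cells. HNRNPL and HNRNPC were far above, and HNRNPU far below, the untreated libraries in BOR 2 and not in BOR 1. On the common scale HNRNPLL was above both untreated libraries in all 4 treated libraries. It had 1132 in VEM, 1109 in VEM+BOR and 1049 and 945.7 in BOR 1 and BOR 2, against 905.6 and 758.6 in untreated cells. All 4 were set against the same untreated pair, and the share of all genes with this pattern was not counted. When scaled by totals HNRNPLL stood at -0.41 in BOR 2. In TPM its BOR 2 value of 19.73 was below the 31.24 and 21.99 of untreated 1 and untreated 2.

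**Figure D4:**
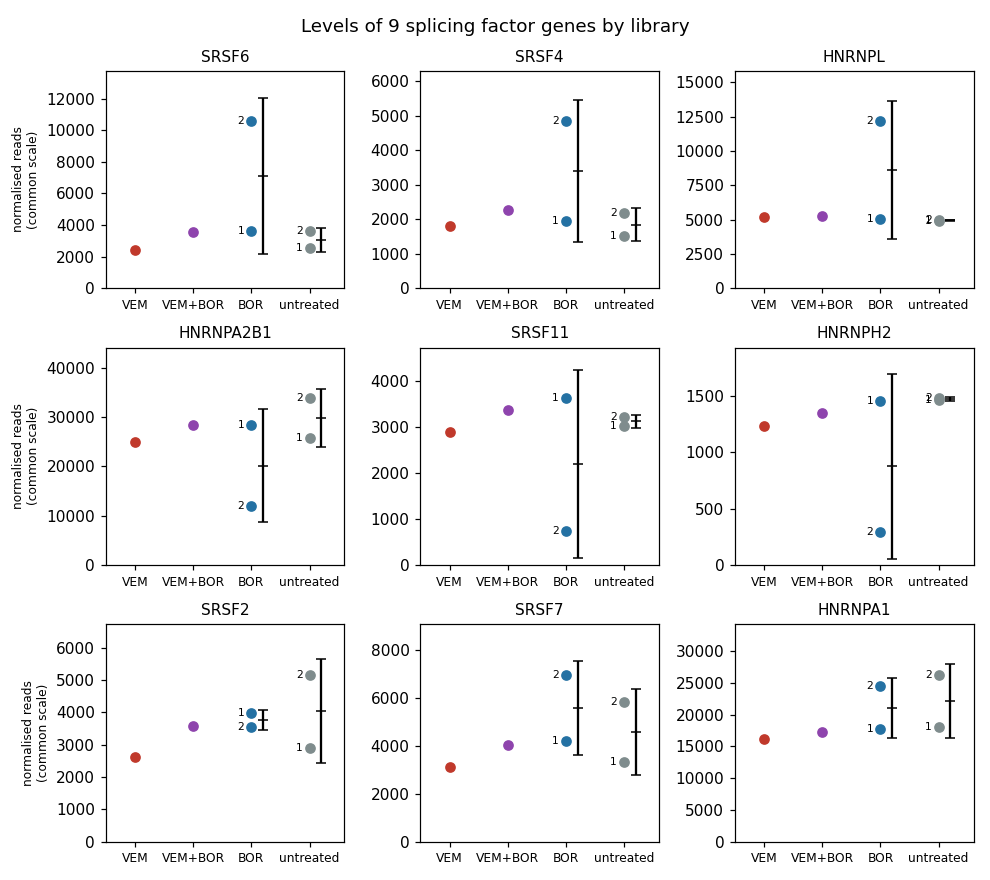
Normalised reads on the common scale in each library for 9 genes; points are libraries, bars give the mean and SD of the BOR and untreated pairs. BOR 2 lies far above the untreated libraries for SRSF6, SRSF4 and HNRNPL and far below them for HNRNPA2B1, SRSF11 and HNRNPH2; scaled by library totals, BOR 2 is 0.59 lower on the log2 scale.

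The calls with BOR rest on which library is used. Without BOR 1, 8 of 35 genes were called, against 26.1% of all 15371 genes tested, and the lone BOR 2 library was then assumed to vary like the untreated pair. SRSF6, SRSF4 and HNRNPL were higher, with log2 changes of 1.81, 1.42 and 1.305. HNRNPH2, SRSF11, HNRNPH3, HNRNPH1 and HNRNPA3 were lower, with log2 changes of -2.32, -2.07, -1.61, -1.39 and -1.325. These calls depend on the scaling too. When scaled by totals, SRSF6, SRSF4 and HNRNPL stood at only 1.21, 0.82 and 0.703 in BOR 2, and the lower genes stood further down. Whether the higher genes would be called on that scale was not tested. Without BOR 2, 0 of 35 genes were called. What set BOR 2 apart was not tested.

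Promoters are shown of genes from either side of the order in BOR 2. Of the 36 genes 32 matched a RefSeq promoter (GRCh38.p14), and the 150 bases before the start were searched on both strands. Printed are the 3 highest and the 3 lowest in BOR 2 among 14 genes whose window held at most 30 exon bases. They are not the most divergent of the family, as SRSF4 and SRSF11, among others, stood further out and are not printed. Capitals mark the searched motifs, which are the GC box GGGCGG, the CCAAT box CCAAT, the E box CACGTG, the TATA box TATAAA and the ETS motif CCGGAAG, or their reverse complements. The SRSF6 window lies at chr20:43457746-43457895 on the plus strand, the HNRNPL window at chr19:38852348-38852497 on the minus strand and the HNRNPAB window at chr5:178204383-178204532 on the plus strand. The HNRNPU window lies at chr1:244864544-244864693 on the minus strand, the HNRNPH1 window at chr5:179634785-179634934 on the minus strand and the HNRNPH2 window at chrX:101408072-101408221 on the plus strand.
SRSF6: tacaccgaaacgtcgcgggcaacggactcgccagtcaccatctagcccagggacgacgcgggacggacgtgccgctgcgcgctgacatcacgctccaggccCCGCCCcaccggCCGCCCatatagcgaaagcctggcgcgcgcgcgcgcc
HNRNPL: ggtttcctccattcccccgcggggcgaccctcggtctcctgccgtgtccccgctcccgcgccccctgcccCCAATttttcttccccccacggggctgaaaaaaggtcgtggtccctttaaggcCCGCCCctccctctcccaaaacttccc
HNRNPAB: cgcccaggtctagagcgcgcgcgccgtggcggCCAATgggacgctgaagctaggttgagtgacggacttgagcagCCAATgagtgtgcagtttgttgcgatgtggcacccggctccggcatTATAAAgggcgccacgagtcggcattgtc
HNRNPU: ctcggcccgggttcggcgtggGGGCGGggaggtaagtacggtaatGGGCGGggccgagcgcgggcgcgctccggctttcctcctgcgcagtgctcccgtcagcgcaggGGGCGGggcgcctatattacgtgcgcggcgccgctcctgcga
HNRNPH1: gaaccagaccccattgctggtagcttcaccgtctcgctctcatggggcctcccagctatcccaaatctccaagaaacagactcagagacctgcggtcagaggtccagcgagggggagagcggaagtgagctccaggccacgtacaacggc
HNRNPH2: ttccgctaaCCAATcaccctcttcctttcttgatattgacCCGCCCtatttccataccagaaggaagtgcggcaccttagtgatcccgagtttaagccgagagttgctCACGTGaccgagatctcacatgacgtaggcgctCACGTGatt

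Of these 6 windows, GC boxes were found in SRSF6, HNRNPL, HNRNPU and HNRNPH2 and CCAAT in HNRNPL, HNRNPAB and HNRNPH2, so both stood in genes high and low in BOR 2. TATAAA was found in HNRNPAB alone, CACGTG in HNRNPH2 alone, the ETS motif in none of the 6 and no searched motif in HNRNPH1. Over all 32 windows the GC box was held by 20 (62.5%), against 36.8% of 35116 promoters of the same length. The family had the window nearest each gene's start, while the background took every promoter, of expressed genes or not. CCAAT was held by 12 (37.5%), against 23.5%, and CACGTG by 6 (18.8%), against 4.57%. The ETS motif and TATAAA were each held by 3 (9.38%), against 6.85% and 6.71%. The median GC content was 66.0%, against 60.0% in all promoters. A match describes letters and not a bound site.

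The annotated transcripts of these genes were counted in GENCODE 29. A transcript subject to nonsense-mediated decay was annotated for 26 of the 35 genes (74.3%), against 43.1% of the 12767 protein-coding genes past the filter. A retained-intron transcript was annotated for 24 (68.6%), against 57.7%. The median number of transcripts was 11, against 8. SRSF7 had 6 decay transcripts and HNRNPU had 9. The tables count reads per gene, so levels of productive and decay transcripts cannot be told apart.

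Reads of some genes cannot be assigned with certainty. Exons of 17 of the 36 genes overlap another gene, among them SRSF2 with MFSD11, HNRNPA2B1 with CBX3, HNRNPU with COX20, HNRNPUL1 with TGFB1 and HNRNPH2 with the RPL36A-HNRNPH2 readthrough. The protocol names no strand step, so reads of overlapping genes on opposite strands cannot be told apart. Another 26 pseudogenes of the same name pattern were in every table and summed to 0.378% of the family's signal in untreated cells. HNRNPLL and SRSF7, neighbours 140.0 kb apart, stood at 0.19 and 0.66 in BOR 2, and HNRNPD and HNRNPDL, 48.1 kb apart, at 0.57 and 0.12 on the log2 common scale.

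The rest of the splicing machinery was described by 8 lists: the U1, U2, tri-snRNP, Sm and LSm, Prp19, exon junction and decay, kinase and import, and other regulator genes. By limma 0 genes of any list were called with VEM, VEM+BOR or BOR. At an unadjusted p under 0.05 stood, with VEM, 3 of the 19 exon junction and decay genes and 1 of the 12 U1 genes, against 2.54% of all genes. With VEM+BOR it was 1 of the 19 U2 genes, against 3.01%, and with BOR 0 genes, against 0.247%. In the lists not named here the count was 0. Over the 8 lists, the lowest log2 change with VEM was that of SMG1, the kinase that starts nonsense-mediated decay, at -1.25 (limma adjusted p = 0.841). The highest was that of CELF1, a regulator that binds GU-rich RNA, at 0.46. With VEM+BOR the highest was U2AF1, the subunit that reads the 3′ splice site, at 1.17 (limma adjusted p = 0.9999), a gene with a near-identical copy in the assembly and so uncertain. The lowest was SRPK3, an SR protein kinase, at -0.67.

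Untreated 2 was above untreated 1 in these lists too, on the common scale. It was higher for 17 of 17 Prp19 genes, 14 of 14 Sm and LSm genes, 18 of 19 U2 genes and 15 of 16 tri-snRNP genes, against 50.4% of all genes. It was higher for 10 of 12 U1 genes, 14 of 19 exon junction and decay genes, 32 of 45 other regulators and 7 of 12 kinase and import genes.

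In BOR 2 the lists stood apart on the common scale. The median log2 distance to the untreated mean was 0.80 for Sm and LSm genes, 0.78 for exon junction and decay genes and 0.64 for tri-snRNP genes. It was 0.30 for U2 genes, 0.19 for other regulators, -0.39 for U1 genes, -0.48 for Prp19 genes and -0.74 for kinase and import genes, beside 0.16 for SR protein and hnRNP genes and 0.04 for all genes. Scaling by totals lowers each by about 0.59, which turns the sign for U2 genes, other regulators, SR protein and hnRNP genes and all genes. Among the SR protein kinases, which phosphorylate the arginine and serine tails, CLK3 stood at -0.14 in BOR 1 and 1.88 in BOR 2, and PRPF4B at 0.30 in BOR 1 and -3.00 in BOR 2. With BOR the lowest log2 change in the lists was that of U2SURP, a protein associated with the U2 particle, at -1.97, and the highest that of EIF4A3, the helicase of the exon junction complex, at 0.89, both with limma adjusted p = 0.968. Both rest on BOR 2: on the common scale U2SURP stood at 0.13 in BOR 1 and -4.07 in BOR 2, and EIF4A3 at -0.08 in BOR 1 and 1.86 in BOR 2.

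**Figure D5:**
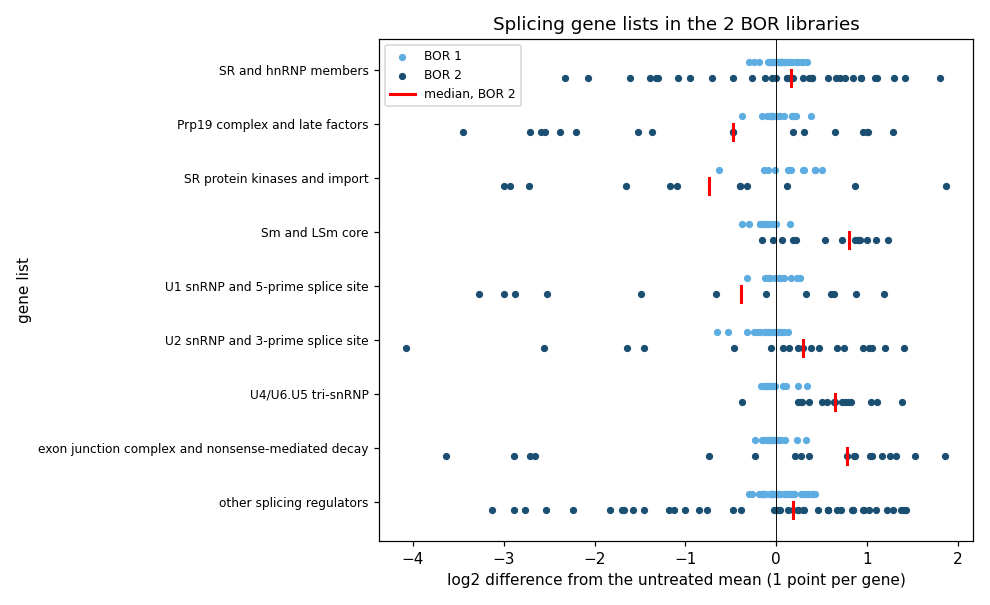
Log2 difference from the untreated mean on the common scale for each gene of 8 splicing lists and of the SR protein and hnRNP genes, BOR 1 (light) and BOR 2 (dark), with the BOR 2 median as a line. BOR 1 medians run from -0.10 for Sm and LSm genes to 0.15 for kinase and import genes, and BOR 2 medians run from -0.74 for kinase and import genes to 0.80 for Sm and LSm genes; scaled by library totals each BOR 2 value is about 0.59 lower.

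The authors' deposited tables called 0 of these genes at an adjusted p under 0.05 in any comparison. The lowest unadjusted p of the family in the authors' deposited tables was 0.104 for HNRNPA1P48 with VEM, 0.324 for HNRNPLL with VEM+BOR and 0.0759 for SRSF6 with BOR.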

How the data were processed

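RNA was measured in 6 SKM-1 libraries grouped by their treatment labels. The submitters' processing notes name edgeR 3.22.5, DESeq2 1.20.0, featureCounts 1.5.0-p3, HISAT2 2.0.5 and CASAVA, without roles. The authors deposited 3 tables of normalised signal, reads divided by 1 size factor per library, with their log2 fold changes and p-values. Whole multiples (tolerance 0.001) gave back reads in the other libraries. For VEM the outcome of this check was not kept, whole reads were not claimed and no count test was made. Genes with a mean of at least 10 were tested within each table with limma 3.58.1 (mean-variance trend, pseudocount 1, two-sided, Benjamini-Hochberg), a lone treated library being assumed to vary like the untreated pair. The script was tested on simulated data. Values of all libraries were set on a common scale by median ratios over 17760 genes, a step chosen after seeing the files. TPM used the deposited gene lengths. edgeR 4.0.16 and DESeq2 1.42.0 were alternatives. The members and lists were chosen with earlier results of these data known. Named are the 4 highest and 4 lowest changes per comparison, and for other lists the largest change each way; levels may be given of any member.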

Additional observations from a re-analysis of the deposited data

How the results depend on the processing

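No paired analysis was possible because replicates were numbered by accession order, which pairs nothing. For VEM and VEM+BOR a library was left out of the fit of all 6 libraries, not of the comparison's own table. Those counts are to be read against the fit of all 6 libraries. Genes called with VEM, 7 by limma, were 0 with no filter, 40 with scaling by totals, 0 with all 6 libraries in 1 fit and 0 to 17 with a library left out, 0 without either untreated library and 17 without BOR 1 in the fit of the other libraries. Genes called with VEM+BOR, 30 by limma, were 0 with no filter, 89 with scaling by totals, 51 with TMM factors, 0 in the fit of all 6 libraries, 90 by edgeR, 60 by DESeq2 and 0 to 52 with a library left out, again 0 without either untreated library and the highest without BOR 1. With BOR, 0 by limma, they were 19 by DESeq2 and 0 to 4008 with a library left out, the highest without BOR 1. SR protein and hnRNP genes called were 0 under each alternative run, except 8 with BOR when BOR 1 was left out. Their median log2 change with BOR ran from -0.18 to 0.39 with a library left out. Leaving out a library turned the direction of SRSF9 with VEM (-0.091 to 0.25), of HNRNPDL (-0.15 to 0.66), HNRNPA1L2 (-0.58 to 0.068) and HNRNPD (-0.49 to 0.081) with VEM+BOR, and of HNRNPC (-0.0051 to 1.11), SRSF11 (-2.07 to 0.23) and HNRNPH3 (-1.61 to 0.0077) with BOR. The cause was not tested. edgeR and DESeq2 were not run for VEM. With 1 residual degree of freedom for VEM and for VEM+BOR and 2 for BOR, the estimated spread borrows from all genes. SRSF12 stood at 2 reads or fewer, and the reason was not tested.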
